A study of Homo sapiens with 12 samples.

Results

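The binding of dSpCas9 to the mRNA of CDIP1, the cell death inducing gene that p53 switches on, is described here from every eCLIP peak on the strand of this gene. The members are the peaks of the 4 deposited lists that lie on the minus strand within the annotated span of the gene (ENSG00000089486.17) on chr16 of hg38, between HMOX2, which ends at 4510347, and C16orf96, which starts at 4556340. They number 27 of the 18128 peaks in the 4 lists. V5 over size-matched input and V5 over empty vector held 7 each, FLAG over size-matched input held 7 and FLAG over empty vector held 6.

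eCLIP cross-links a protein to the RNA that it touches in living cells with UV light, recovers the protein by immunoprecipitation (IP) and sequences the RNA that comes with it. The 12 libraries came from HEK 293T, a line of human embryonic kidney cells with the large T antigen of SV40, transiently transfected with a plasmid for V5-dSpCas9, a plasmid for 3xFLAG-dSpCas9, or the empty vector. dSpCas9 is Streptococcus pyogenes Cas9 without nuclease activity, here without a nuclear localization signal and without a guide RNA. For each antibody there were 2 IP libraries from tagged cells, 2 libraries of size-matched input (not immunoprecipitated RNA of the tagged cells, taken from the matching part of the membrane) and 2 IP libraries from empty vector cells, and each list compares the IP libraries with one control.

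Enrichment is the log2 of the ratio of IP to control reads in a peak, as the authors computed it over the replicates, and each peak of a list has 1 such value. No spread between replicates can therefore be given, differences between lists were not tested, and depth is unknown. The lists start at a log2 of 3.00, and their −log10 p stops at a ceiling of 400. The lists of one antibody share their IP libraries. They hold no level of CDIP1 RNA, and the cell line cannot be checked against markers in peak lists.

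CDIP1 encodes a small membrane protein of late endosomes and lysosomes whose C-terminal part carries a LITAF domain. Its transcription is induced by p53 after DNA damage, and the protein promotes apoptosis. In HEK 293T cells the large T antigen binds p53. The 5′ UTR of an mRNA is the stretch that the small ribosomal subunit scans on its way to the start codon.

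The canonical transcript has 6 exons and 2706 nt, of which the 5′ UTR takes 176 nt, the CDS 624 nt without its stop codon, and the 3′ UTR with the stop codon 1906 nt. Exon 1 (72 nt, chr16:4538702-4538773) and exon 2 (90 nt, chr16:4514575-4514664) are 5′ UTR throughout. The peaks lay on exon 1, the start of exon 2, the end of exon 5 and the start of exon 6. The following sequences, read from hg38 on the minus strand, are shown because the results turn on them. They are the GU of exon 1 with the 5 bases after it in capitals (chr16:4538732-4538754), the junction of exon 1 with exon 2 in capitals (chr16:4538702-4538716 joined to chr16:4514650-4514664), and the junction of exon 5 with exon 6 in capitals (chr16:4512791-4512806 joined to chr16:4512670-4512683).

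Exon 1: gccgaggcGTTCGGTcctgctgt

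Exon 1 to exon 2: agggctgcggggacgCTCCCGGAGCCCTGC

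Exon 5 to exon 6: tctgttgcttcatgggATGTGATCTGGGCT

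In the genome, exon 1 is followed by GTgagtcgac (chr16:4538692-4538701), where the capitals mark the first bases of intron 1.

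dSpCas9 was most enriched on exon 1 of CDIP1, and all 72 nt of this exon were covered in each of the 4 lists. With V5 and size-matched input as the control, the exon held 4 neighbouring peaks with log2 enrichments of 7.18, 7.03, 6.57 and 6.49 from the 5′ to the 3′ end, that is 145.1-fold at the 5′ end and 89.9-fold at the 3′ end, each at the p-value ceiling. The same 4 intervals over the empty vector had 7.20, 6.35, 5.99 and 5.70, with −log10 p from 37.7 to 69.9. Thus the value was highest at the cap-proximal end of the exon and fell in order towards exon 2 over either control.

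In FLAG the exon was divided into 2 peaks, of 47 nt at the 5′ end and 31 nt at the 3′ end. Over size-matched input they had 8.23 (300.9-fold) and 8.03 (261.1-fold), and over the empty vector 8.01 (258.1-fold) and 7.13 (140.4-fold), all 4 at the p-value ceiling. FLAG had the same order as V5, with the higher value at the 5′ end in both lists. The log2 value at the 5′ end was higher in FLAG than in V5 over either control. The cause of that difference was not tested, since tag, antibody and transfection differ together.

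The 5′ border of these peaks lay upstream of the canonical start. V5 peaks began at 4538777, 4 nt before it, and FLAG peaks at 4538779, 6 nt before it. Of the 14 annotated CDIP1 transcripts, 6 share the 3′ end of exon 1, and the one that starts farthest upstream begins 55 nt before the canonical start. None of the 4 transcripts whose first exon lies inside intron 1 of the canonical transcript had a peak on that first exon in any list, whereas 3 further transcripts begin at or before exon 2 and so hold its peaks in their first exon.

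**Figure D1:**
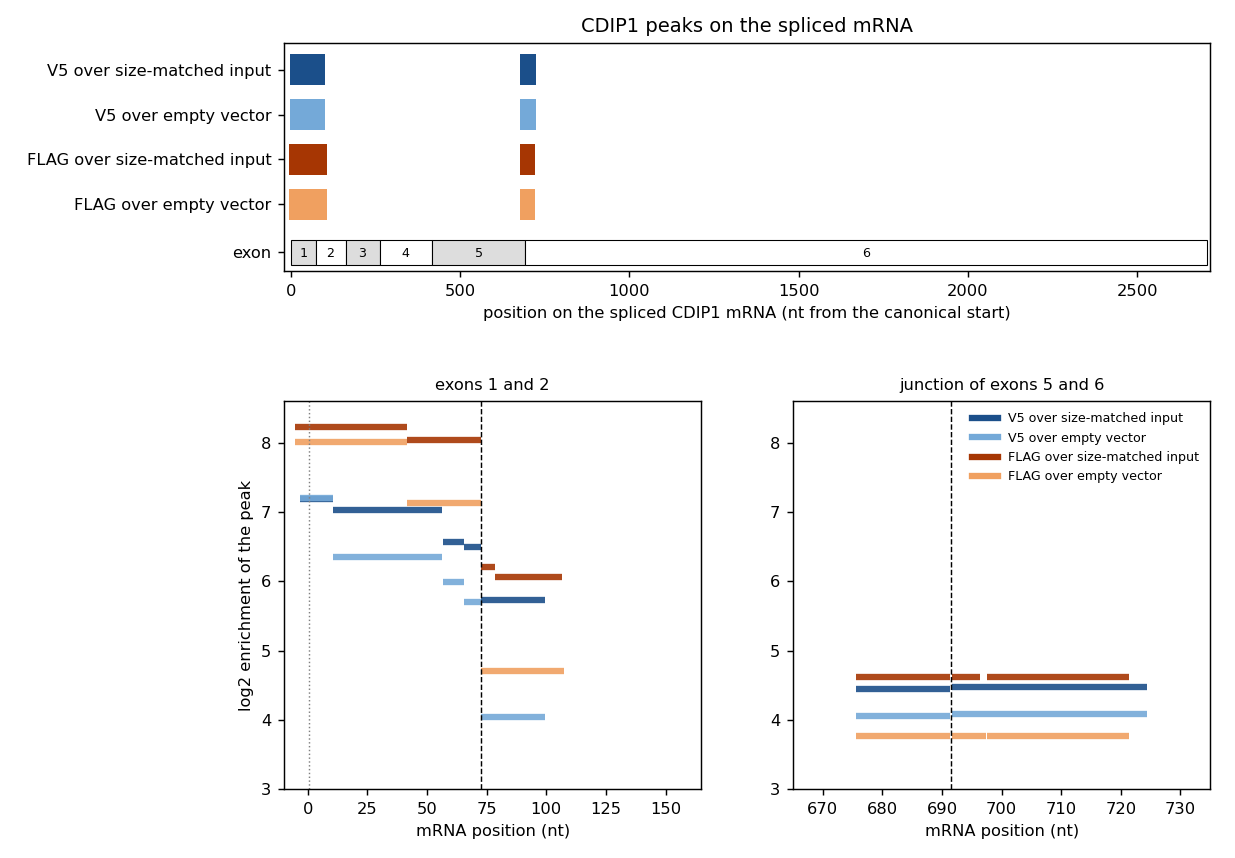
CDIP1 peaks on the spliced mRNA. Top, position of the peaks of each list (coloured blocks) on the 2706 nt mRNA, with the 6 exons as boxes; bottom, log2 enrichment of each peak (horizontal lines, 1 per peak, 1 value for both replicates) against mRNA position around exons 1 and 2 and around the junction of exons 5 and 6, with dashed lines at the exon junctions and a dotted line at the canonical start. Enrichment was highest on exon 1, reaching 8.23 in FLAG, stepped down at the start of exon 2, and was level across the junction of exons 5 and 6 at 3.77 to 4.62.

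Exon 2 was bound at its 5′ end. In V5 over size-matched input a peak of 27 nt from the first nucleotide of the exon had a log2 enrichment of 5.73 and a −log10 p of 22.5, and over the empty vector it had 4.05 and 9.8. In FLAG over size-matched input, peaks of 6 nt and 28 nt had 6.21 and 6.06, and 1 peak of 35 nt over the empty vector had 4.71. The covered part was thus 27 to 35 of the 90 nt of the exon, and 55 nt at its 3′ side had no peak in any list.

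The CDS was bound at a single place, the junction of exons 5 and 6, in codons 167 to 183 of 208. The last 16 nt of exon 5 (chr16:4512791-4512806) formed a peak in every list, with log2 enrichments of 4.45 in V5 and 4.62 in FLAG over size-matched input, and 4.06 in V5 and 3.77 in FLAG over the empty vector. On the other side of intron 5, which is 107 nt long, a V5 peak covered the first 33 nt of exon 6 (chr16:4512651-4512683) with 4.48 against the input and 4.09 against the empty vector. The V5 peaks of this junction had −log10 p of 8.0 and 8.4 over size-matched input and of 3.8 over the empty vector, where the list starts at 3.01. The 2 FLAG peaks there ended at 4512654 and had the same values as exon 5, 4.62 and 3.77. These peaks were about as enriched on one side of the junction as on the other, and all were below the values of exon 1.

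Nothing else in the gene had a peak. Exons 3 and 4, the rest of the CDS and the 3′ UTR were free of peaks in the 4 lists, as were the 5 introns, including the 24037 nt of intron 1. No list had a peak on the plus strand of the gene span, and the flanking protein-coding genes HMOX2 and C16orf96 had none. In all, 148 to 153 nt of the mRNA (5.47% to 5.65%) were covered, depending on the list.

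On the spliced mRNA the 27 peaks came down to 2 stretches per list, when peaks were joined across exon junctions and over a gap of up to 1 nt. The 5′ stretch began at the canonical start or the few nucleotides before it, and ended at mRNA position 99 in both V5 lists, at 106 in FLAG over size-matched input and at 107 in FLAG over the empty vector. The CDS stretch ran from position 676 to 724 in V5 and from 676 to 721 in FLAG. Positions 1 to 99 of the mRNA were therefore covered in 4 lists without a break, although exons 1 and 2 are far apart in the genome. The lists hold no reads, so reads that cross a junction could not be counted, and whether the borders come from spliced reads or from the way the caller treats exons was not tested.

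The CDIP1 peaks that end exactly at a spliced exon border lay, in every list, at the junctions of exons 1 and 2 and of exons 5 and 6. There were 4 of 7 in V5 over size-matched input, where 13.0% of all exonic peaks did, and 4 of 7 over the empty vector, against 16.4%. In FLAG there were 4 of 7 over size-matched input, against 14.0%, and 4 of 6 over the empty vector, against 15.3%. The shares cover all exonic peaks, however far from a border they lie, and the lists repeat the same junctions. No conclusion is drawn from the difference. Both CDIP1 junctions that were touched had a peak on either side. Among all junctions touched by a peak, 26.4% in V5 and 25.9% in FLAG over size-matched input had one on either side, and 29.5% and 31.5% over the empty vector.

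The step in enrichment at these 2 junctions differed. From exon 1 to exon 2 the log2 value dropped by 0.76 in V5 over size-matched input, by 1.65 in V5 over the empty vector, by 1.82 in FLAG over size-matched input and by 2.42 in FLAG over the empty vector. The drop ranked 1 of 180 and 1 of 69 in size among the junctions with peaks on either side in the FLAG lists, 2 of 109 in V5 over the empty vector and 16 of 171 in V5 over size-matched input. The median absolute step over those junctions was 0.20 to 0.33. Of the annotated transcripts, 6 have an exon under the exon 1 peaks and 12 under the exon 2 peaks. Whether the drop reflects this difference was not tested. From exon 5 to exon 6 the log2 values differed by 0.03 in V5, with exon 6 higher, while in FLAG both the enrichment and the p-value were identical on either side, as in 4 of 180 junctions over size-matched input and 2 of 69 over the empty vector.

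CDIP1 held peaks among the most enriched of each list. Its highest peak ranked 1 of 3005 in V5 over the empty vector and 1 of 1964 in FLAG over the empty vector. Over size-matched input it ranked 20 of 6605 in V5 and 12 of 6554 in FLAG, and by the highest peak of each gene CDIP1 was at rank 8 of 2715 genes in V5 and 5 of 2646 in FLAG. The median log2 enrichment of all peaks was between 3.59 and 3.63 in the 4 lists.

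A log2 enrichment of 6, or 64-fold, was reached by 12 of the 27 peaks. In V5 these were 4 of 7 over size-matched input, where 0.939% of all peaks reached it, and 2 of 7 over the empty vector, where 0.499% did. In FLAG they were 4 of 7 over size-matched input, against 1.31%, and 2 of 6 over the empty vector, against 1.12%. Of the 12 peaks, 10 lay on exon 1, and the other 2 were the FLAG peaks on exon 2 over size-matched input. Touching peaks were counted apart, and the lists of each antibody share their IP libraries. The 12 peaks are therefore pieces of the 5′ stretch and not separate sites. The CDS peaks ranked 806 and 843 of 6605 in V5 and 694 of 6554 in FLAG over size-matched input. Over the empty vector they ranked 720 and 756 of 3005 in V5 and 748 of 1964 in FLAG. In that last list their log2 enrichment of 3.77 was close to the median of 3.59.

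**Figure D2:**
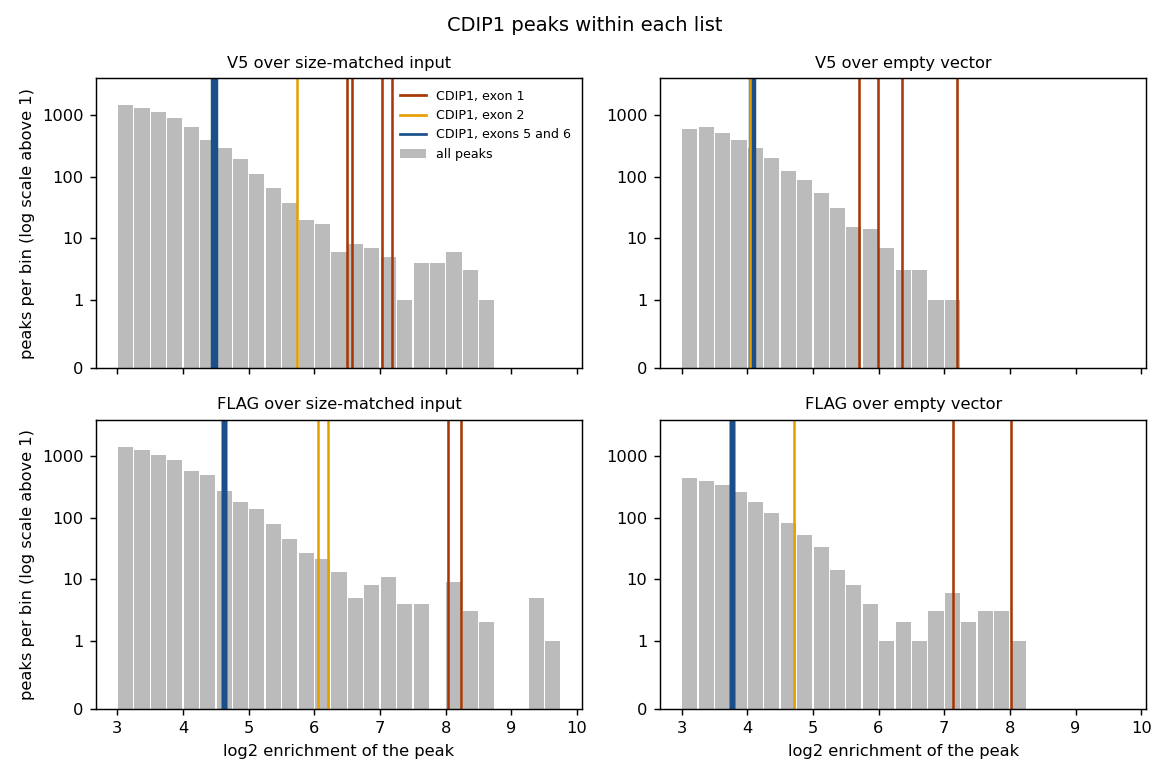
Distribution of log2 enrichment in each of the 4 lists. Grey bars count all peaks in bins of log2 enrichment (vertical axis on a log scale above 1), and vertical lines mark the CDIP1 peaks on exon 1 (dark red), exon 2 (yellow) and exons 5 and 6 (blue). The exon 1 lines lie in the upper tail, from 5.70 to 8.23, and the exon 5 and 6 lines lie nearer to the bulk, from 3.77 to 4.62.

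The position of the highest peak was set beside that of other genes. In CDIP1 it overlapped exon 1 in each list. Among protein-coding genes with more than 1 exon, the highest peak overlapped exon 1 of the canonical transcript in 20.7% of 2580 genes in V5 and 16.6% of 2525 in FLAG over size-matched input, and in 21.2% of 1284 and 6.81% of 969 over the empty vector. It did so in all 4 lists for 34 genes, while 549 genes of any type had a peak in each list. By the mean of the 4 highest values, CDIP1 led these 34 genes with 7.66. QPRT, an enzyme of NAD synthesis, followed with 5.69, the deubiquitinase gene USP48 with 5.13, the cyclin gene CCNA2 with 4.93 and ERCC4, a nuclease subunit of nucleotide excision repair, with 4.84. Exon 1, of 72 nt in CDIP1, was 31 nt long in QPRT, 326 nt in USP48, 468 nt in CCNA2 and 219 nt in ERCC4.

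The GU-loop:5nt-stem is the feature of the Cas9 guide RNA that the study looked for in bound RNAs. The study also assayed RNA of the CDIP1 5′ UTR with SpCas9 protein by gel shift. There, guide RNA outcompeted the CDIP1 RNA and non-specific RNA did not. Changing the G or the U of the exon 1 GU shown above reduced binding. Mutations meant to disrupt the stem abolished binding, while a shorter loop that kept its GU enhanced it. In the study a model of the motif also did better on bound sites than on shuffled sequences. The RNA used in that assay began upstream of the canonical start and ran on from exon 1 into intron 1. The motif was called where a GU is followed directly by 5 bases, with all 7 bases inside the peak. The predicted pairing probability had to be under 0.7 for the U and over 0.5 for each of the 5 bases. Exactly 1 CDIP1 peak per list carried it, in each case the exon 1 peak that holds GTTCGGT. The call rested on GTTCGGT in V5, with 0.713 as the lowest probability of the 5 bases. In FLAG it rested on GTTCGGT with 0.692 and also on GTGCGAC, nearer to the 5′ end, with 0.501. The shares over all peaks were 41.3% in V5 over size-matched input, 39.4% in V5 over the empty vector, 39.3% in FLAG over size-matched input and 39.9% in FLAG over the empty vector. Longer peaks have more room for the motif. Among peaks within 5 nt of the length of that exon 1 peak, 29.3% of 508 and 27.8% of 234 carried it in the V5 lists over size-matched input and empty vector, and 27.9% of 567 and 34.2% of 152 in the FLAG lists. GTTCGGT itself occurred on the transcript strand in 13 of 6605 V5 and 12 of 6554 FLAG peaks over size-matched input (0.197% and 0.183%). With the empty vector as the control it occurred in 9 of 3005 and 7 of 1964 (0.300% and 0.356%), CDIP1 included. These shares cannot be set against those of the call, which fixes only the letters GU. The 7 bases were read from the CDIP1 peak and their rate by chance was not computed, so no conclusion is drawn from their rarity.

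No GU of the CDS stretch was called, spliced or not. It holds 2 GU and the 5′ stretch holds 6, at mRNA positions 5, 28, 33, 41, 90 and 97. With exon 1 folded in its genomic context (flanks of 50 nt), the GU at positions 5 and 28 were called. At position 28 (GTTCGGT) the U had a pairing probability of 0.434 and the lowest of the 5 bases 0.713. At position 5 (GTGCGAC) these were 0.316 and 0.542.

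Folded as spliced mRNA from the canonical start, neither was called. The lowest of the 5 bases then fell to 0.421 at position 28 and 0.370 at position 5. The fold depends on where the mRNA starts, so 5 first bases (4 annotated starts and the outermost end of the peaks) were tried. At position 28 the call was made in 1 of 5 spliced sequences, with the lowest of the 5 bases between 0.421 and 0.533, and in 5 of 5 unspliced ones, where it was between 0.713 and 0.887. For position 5 the counts were 2 of 5 and 5 of 5. The lowest of the 5 bases was there between 0.370 and 0.545 spliced, and between 0.508 and 0.661 unspliced. Several of these values lie close to the cutoff of 0.5, so the spliced calls turn on small differences. Over the whole spliced mRNA, 15 of 154 GU (9.74%) were called. The values are predictions from sequence, and structure in the cell was not measured in these files.

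**Figure D3:**
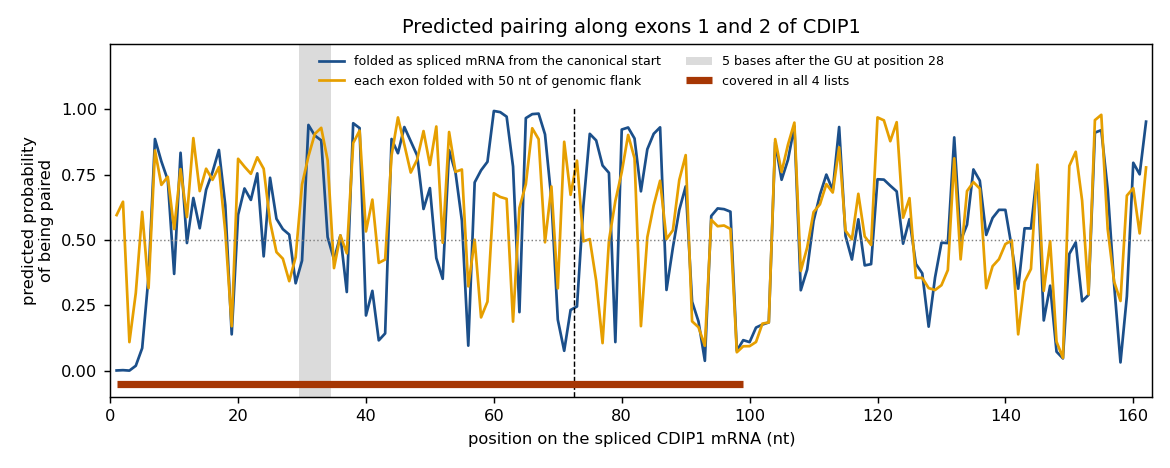
Predicted pairing probability at each base of exons 1 and 2 of CDIP1 (mRNA positions 1 to 162), folded as spliced mRNA (blue) or each exon with genomic flanks (yellow). The dashed line is the exon junction, the grey band marks the 5 bases after the GU at position 28, and the red bar marks positions 1 to 99, covered in 4 lists; within the band the lowest probability was 0.713 with genomic flanks and 0.421 in the spliced mRNA.

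The bound 5′ stretch was GC-rich. Exon 1 had 72.2% GC and the part of exon 2 under V5 peaks 70.4%, against 58.7% in the rest of exon 2 and 57.7% in the whole mRNA. The median GC content of all peaks was between 56.2% and 60.9%. Mean predicted pairing in the spliced mRNA was 0.586 over exon 1, 0.580 over the bound part of exon 2, 0.525 over the rest of exon 2 and 0.527 over the mRNA. With genomic flanks it was 0.643 over exon 1, 0.494 over the bound part of exon 2 and 0.548 over its rest. The order of the parts of exon 2 thus depended on the fold. High GC content was not shared by all CDIP1 peaks. The V5 peak of 14 nt at the 5′ end of exon 1, with the highest V5 enrichment of the gene, had 50.0% GC, and 14.1% of the peaks over size-matched input and 13.2% of those over the empty vector were lower. The exon 5 peak had 50.0% as well.

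The intersection of the 4 lists, with at least 50% of the first interval covered at each step, kept 7 CDIP1 intervals. Of these, 4 lay on exon 1, 1 on exon 2 and 2 on exons 5 and 6. Counted by nucleotide, 72 nt of exon 1, 27 of exon 2, 16 of exon 5 and 29 of exon 6 were covered in all 4 lists, together with 4 nt upstream of the canonical start. The nucleotide count does not depend on how finely a caller divides a region. At a log2 enrichment of at least 6 in every list, 56 of the 72 nt of exon 1 were still covered, the excluded 16 nt being the end next to exon 2.

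CDIP1 was set beside 39 other genes that p53 is known to induce. Of these, 22 had a peak in V5 over size-matched input, where 13.3% of the 20033 protein-coding genes did, and 15 had one over the empty vector, against 6.56%. In FLAG the counts were 22, against 12.9%, and 16, against 4.88%. A peak in each of the 4 lists was found for 14 of the 39, against 2.72% of protein-coding genes, and 16 had no peak in any. Expression was not available to match genes on, and these shares were not tested.

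None of the 14 had a highest peak above that of CDIP1 in the same list. Over the empty vector no gene could, since CDIP1 held the highest peak of both lists. ATF3, a stress-induced transcription factor, came nearest, with 6.06 in V5 and 6.37 in FLAG over size-matched input, and 6.67 and 7.26 over the empty vector. CDKN1A, the CDK inhibitor p21, had 5.52 and 6.40, and 4.90 and 6.49. CCNG1 (cyclin G1) had 6.93 in V5 over size-matched input, more than the other 13, but 4.71 in FLAG. The growth factor gene GDF15 and the nuclease gene AEN reached 5.80 and 5.21 in V5 over size-matched input, and 4.64 and 5.64 in FLAG.

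The other 9 of the 14 had no value above 5.33 in any list. Among regulators of p53 itself, MDM2 had 5.19 in V5 and 5.01 in FLAG over size-matched input, and the phosphatase gene PPM1D 5.07 and 4.86. Among the death genes, PMAIP1 (NOXA) had 5.33 and 4.93, and the death receptor gene TNFRSF10B 3.86 and 3.80. The sestrin genes SESN1 and SESN2 had 4.02 and 4.55 in V5, and 4.56 and 4.78 in FLAG. RRM2B, ZMAT3 and the DNA repair gene XPC had V5 values of 4.36, 4.29 and 3.53, and FLAG values of 4.62, 4.15 and 4.41. All 9 lay below CDIP1 in each list, as had to be so over the empty vector.

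**Figure D4:**
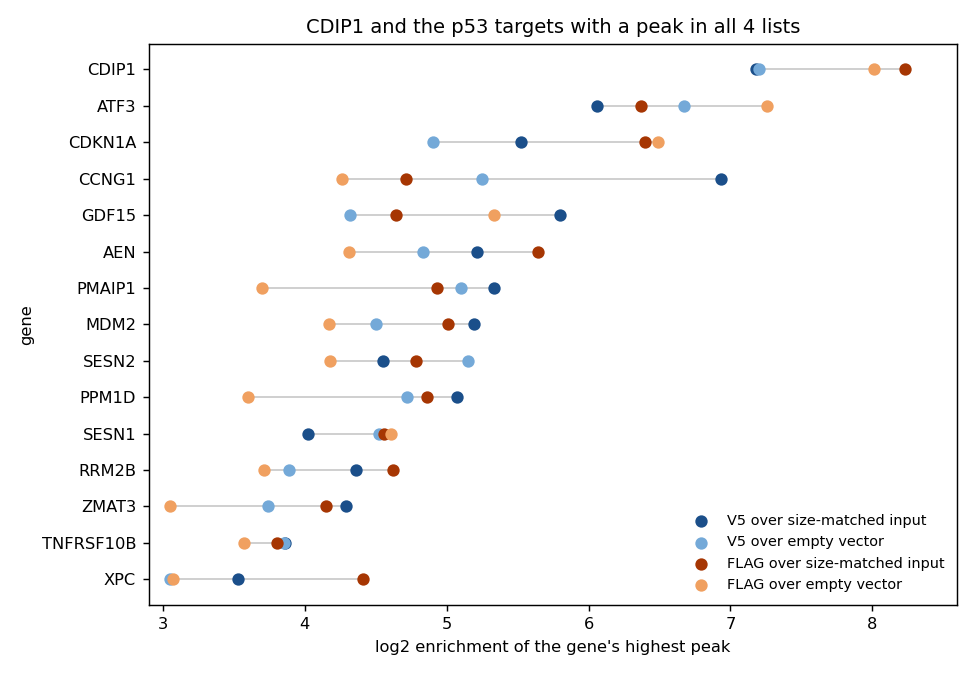
Log2 enrichment of the highest peak of CDIP1 and of the 14 p53 targets with a peak in all 4 lists. Each row is a gene, sorted by the mean of its 4 values, each dot is 1 list, and the grey line spans the 4 values; CDIP1 lies at the top, from 7.18 to 8.23, and XPC at the bottom, from 3.05 to 4.41.

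A further list held 11 genes of the CDIP1 family and its partners (LITAF, the related gene that gave the domain its name, the ER protein genes BCAP31, VAPA and VAPB, apoptosis genes and genes of the ESCRT machinery). In V5, 4 of the 11 had a peak over size-matched input, against 13.3% of protein-coding genes, and 4 over the empty vector, against 6.56%. In FLAG there were 5, against 12.9%, and 2, against 4.88%. No gene of the 11 had a peak in each list, against 2.72% of protein-coding genes, and 6 had none in any list. These shares were not matched on expression or tested either. LITAF, named after its values were seen, had 3.45 in V5 and 3.55 in FLAG over size-matched input, 3.71 in V5 over the empty vector and no peak in the remaining list.

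The genes whose 4 highest values were nearest to those of CDIP1 (Euclidean distance over the 4 lists, among the 548 other genes with a peak in each) were H2AC11 at 1.16, ATF3 at 2.36, POLG at 3.17, CDKN1A at 3.70 and QPRT at 4.05. H2AC11 encodes a histone H2A and has near-identical paralogs, and whether its reads were placed uniquely was not tested. It had 6.73 in V5 and 7.67 in FLAG over size-matched input, and 6.30 and 7.93 over the empty vector. POLG, the catalytic subunit of the mitochondrial DNA polymerase, had 5.58 and 6.51, and 5.72 and 6.48. In each of the 4 lists these 5 genes had lower values than CDIP1. Over the empty vector this was fixed in advance, since CDIP1 held the highest peak of both lists.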

How the data were processed

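Each of 6 groups had 2 libraries. Alignment to hg38 and peak calling were done by the authors in version 0.4.0 of the eCLIP pipeline, and peaks ranked by entropy were combined over replicates with the Irreproducible Discovery Rate. The submitters' processing notes also name UMI-tools 1.0.0, cutadapt 1.14, STAR 2.4.0i and SAMtools 1.6. The deposited lists hold, per peak, the log2 of the geometric mean ratio of IP to control reads and the −log10 of a p-value, with no reads or replicate values, so depth and replicate error are unknown and no test was run.

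Positions are 1-based on hg38. Exons came from GENCODE 44, with its Ensembl canonical transcripts. Genes were assigned on the same strand, with exons of protein-coding genes first. Pairing used the RNAplfold algorithm of ViennaRNA 2.7.2 (window and span 70, flanks 50 nt) in Python 3.11.15 with pysam 0.24.0. The computations were tested on simulated data and recovered the planted peaks and hairpins. Simulated hairpins without GU could not be called by construction, so wrong pairing calls were not tested.

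By the rule for named genes, these were the members of 2 hand-made lists (p53 targets, and CDIP1 relatives and partners) with a peak in all 4 peak lists, the 5 genes nearest to CDIP1 and the 5 with the strongest exon 1 peaks. No relative or partner met the rule, so LITAF was named outside it, after its values were seen, and BCAP31, VAPA and VAPB only to say what the list holds. CDIP1, these lists and thresholds were chosen with earlier results of these data known. The joining of peaks across splice junctions, the exon border counts and the folding from several transcript starts were chosen after the peaks were seen.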

Additional observations from a re-analysis of the deposited data

How the results depend on the processing

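Of the 7 reproducible CDIP1 intervals, 4 were left with 90% overlap and 4 when touching peaks were merged first, which also turned the 7 peaks of each V5 list into 4. A minimum log2 of 4 left 3 of 6 peaks in FLAG over the empty vector, all on exons 1 and 2. With a threshold of 7 in place of 6, 7 peaks remained of 12. Ranked by the length-weighted mean of its peaks, CDIP1 was at rank 14 and 8 in V5 and FLAG over size-matched input and at rank 6 in V5 over the empty vector. Counting the first exon of any transcript, the share of genes with their highest peak there was 31.6%, 35.9%, 28.0% and 19.8% (V5 over size-matched input and empty vector, then FLAG). The motif was called in 2 in place of 4 CDIP1 peaks with spliced flanks, and in 2 with a window of 150, in both cases those of FLAG. With spliced flanks the FLAG call rested on GTTCGGT alone, at 0.564. No paired analysis was possible because each list gives 1 value per peak over both replicates, and no replicate could be left out. Depth is unknown.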
